A study of Mus musculus with 12 samples.

Results

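The genes described here are the 4 tissue inhibitors of metalloproteinases, Timp1, Timp2, Timp3 and Timp4, and Reck, which encodes a metalloproteinase inhibitor anchored in the plasma membrane. They were taken by gene symbol, and all 5 were found among the 56860 named genes of the count table and passed the filter on low counts. RNA-seq counts came from primary oligodendrocytes (OLs), the myelin-forming cells of the brain, of newborn C57BL/6J mice (P6–P7). The cells had been enriched from the cortex with beads against the O4 antigen, expanded with PDGF-AA and matured with insulin, triiodothyronine and ciliary neurotrophic factor (CNTF). The labels name the medial prefrontal cortex as the tissue. One group of 6 libraries received siRNA against Egr2 (siEgr2) and the other a scrambled control (siNC), and both were harvested at 48 h. The study's methods speak of siRNA, and its account of the sequencing of an interference plasmid. Whether the 6 libraries of a group are separate cultures or animals is not stated in the labels, so the p-values measure only the spread between these libraries.

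The siNC libraries held 28682946 to 39383014 counts and the siEgr2 libraries 8034251 to 16683677. The 18S ribosomal RNA gene Rn18s-rs5 took 0.142% to 1.05% of counts in siNC and 10.5% to 16.5% in siEgr2. Depth and ribosomal RNA share therefore separate the groups in the same way as the treatment and cannot be told apart from it. Egr2 itself was at 5.35 ± 1.27 CPM (counts scaled to 1000000 per library, with library sizes corrected by TMM factors) in siNC and 3.77 ± 1.01 in siEgr2 (SD, n = 6 libraries each), with overlapping groups and edgeR's quasi-likelihood test gave an adjusted p of 0.0981. All directions below are therefore those of the libraries labelled siEgr2. The myelin gene Mbp was abundant, at 1830 ± 134 CPM in siNC, and astrocyte markers were abundant beside it, with Gfap at 4777 ± 205 CPM.

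TIMP proteins are small secreted inhibitors that bind the zinc-containing catalytic site of matrix metalloproteinases (MMPs), and TIMP-3 also blocks ADAM and ADAMTS proteases. MMPs and their relatives cut matrix proteins, growth factor precursors and cell surface receptors, so the balance of protease and inhibitor sets how much matrix is turned over around a cell. In the brain, TIMP-1 is best known as a product of astrocytes that injury and cytokines induce, and RECK for its part in the growth of brain vessels.

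The 4 Timp genes lie on different chromosomes, and 3 of them lie inside a synapsin gene that is read from the opposite strand. On GRCm38, the build named mm10 in the submitters' processing notes, Timp1 (ENSMUSG00000001131) lies on chromosome X from 20870166 to 20874735 within Syn1. Timp3 (ENSMUSG00000020044) lies on chromosome 10 from 86300372 to 86349506 within Syn3, and Timp4 (ENSMUSG00000030317) on chromosome 6 from 115241892 to 115252205 within Syn2. Timp2 (ENSMUSG00000017466) lies on chromosome 11 from 118301069 to 118355740 and contains the small gene Cep295nl. Reck (ENSMUSG00000028476) lies on chromosome 4 from 43875530 to 43944806. By the GENCODE M21 annotation, no exonic base of Timp1, Timp2 or Reck is shared with an exon of another gene. In Timp3, 1733 exonic bases (21.3%) are shared with exons of Syn3, and in Timp4, 90 exonic bases (1.53%) with exons of Syn2. Whether the counting used strand is not given in the sources used here, so reads on these shared bases cannot be assigned to one gene.

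The promoter windows of Timp1, Timp2 and Timp3 are shown because these paralogs differed most in their response. Each window runs from 250 bases before to 50 bases after the RefSeq start (GRCm38.p6), 5′ to 3′ on the strand of the gene, and the capitals mark matches to the motifs given after them. The windows are chrX:20869916-20870215 on the plus strand, chr11:118355362-118355661 on the minus strand and chr10:86300162-86300461 on the plus strand.
Timp1: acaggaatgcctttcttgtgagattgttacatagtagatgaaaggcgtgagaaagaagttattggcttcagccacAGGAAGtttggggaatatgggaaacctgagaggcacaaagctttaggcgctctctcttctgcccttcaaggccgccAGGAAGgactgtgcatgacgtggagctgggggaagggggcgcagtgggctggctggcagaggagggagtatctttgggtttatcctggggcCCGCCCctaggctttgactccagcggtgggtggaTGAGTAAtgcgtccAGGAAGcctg
Timp2: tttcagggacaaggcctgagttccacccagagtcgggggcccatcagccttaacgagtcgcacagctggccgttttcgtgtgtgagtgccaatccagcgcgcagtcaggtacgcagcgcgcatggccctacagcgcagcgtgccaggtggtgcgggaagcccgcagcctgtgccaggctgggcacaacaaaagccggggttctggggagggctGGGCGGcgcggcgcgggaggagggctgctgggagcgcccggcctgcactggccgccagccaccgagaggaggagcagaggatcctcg
Timp3: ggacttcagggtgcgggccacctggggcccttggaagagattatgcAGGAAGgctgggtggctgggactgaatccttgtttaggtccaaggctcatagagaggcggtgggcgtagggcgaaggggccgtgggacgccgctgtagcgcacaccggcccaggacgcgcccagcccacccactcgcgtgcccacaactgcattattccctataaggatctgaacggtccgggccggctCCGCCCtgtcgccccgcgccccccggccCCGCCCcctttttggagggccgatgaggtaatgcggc

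On both strands, the searched letters were AGGAAG (a PEA3 or Ets motif), GGGCGG (a GC box), TGANTCA (AP-1), GCGNGGGCG (the EGR motif), TTCCNGGAA (STAT) and TATAAA. AP-1 and Ets motifs were included because Timp1 is a known target of AP-1 and Ets factors. A variant of the AP-1 motif, TGAGTAA, was added after the Timp1 sequence was seen. The Timp1 window holds 3 AGGAAG, 1 GC box on the opposite strand and 1 TGAGTAA, which starts 27 bases into the transcript and precedes the AGGAAG at base 41. Over 32851 promoter windows of the same length, AGGAAG is found in 35.4%, the GC box in 35.7% and TGAGTAA in 2.68%. The Timp2 window holds 1 GC box, and the Timp3 window holds 2 GC boxes on the opposite strand and 1 AGGAAG. The AP-1 motif TGANTCA (7.81% of all windows), GCGNGGGCG (5.55%), TTCCNGGAA (1.15%) and TATAAA (13.6%) were found in none of the 5 windows, Timp4 and Reck included. The Timp2, Timp3 and Reck windows are rich in G and C (68.7%, 67.0% and 69.3%) and those of Timp1 and Timp4 less so (55.0% and 53.3%), against a median of 52.7% over all windows.

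Of the 5 inhibitor genes, Timp1 and Timp2 were lower in siEgr2, Timp3 and Timp4 differed by little, and Reck stayed within its spread. Calls required both an adjusted p below 0.05 from edgeR and a log2 fold change beyond 0.5 in either direction, the thresholds of the study. By this rule 2 of the 5 were called, both lower, whereas 7.72% of the 16600 tested genes were called in either direction and 5.08% in the lower direction. At the adjusted p alone 3 of the 5 passed, against 19.9% of all tested genes. For 2 of the 5, every siEgr2 library lay below every siNC library, and 11.2% of all tested genes had groups that did not overlap in either direction. The median log2 fold change was -0.19 over the 5 genes and 0.0046 over all tested genes. Among all called genes 437 were higher and 844 lower with TMM factors, and 237 higher and 1737 lower when only library size was used for scaling.

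**Figure D1:**
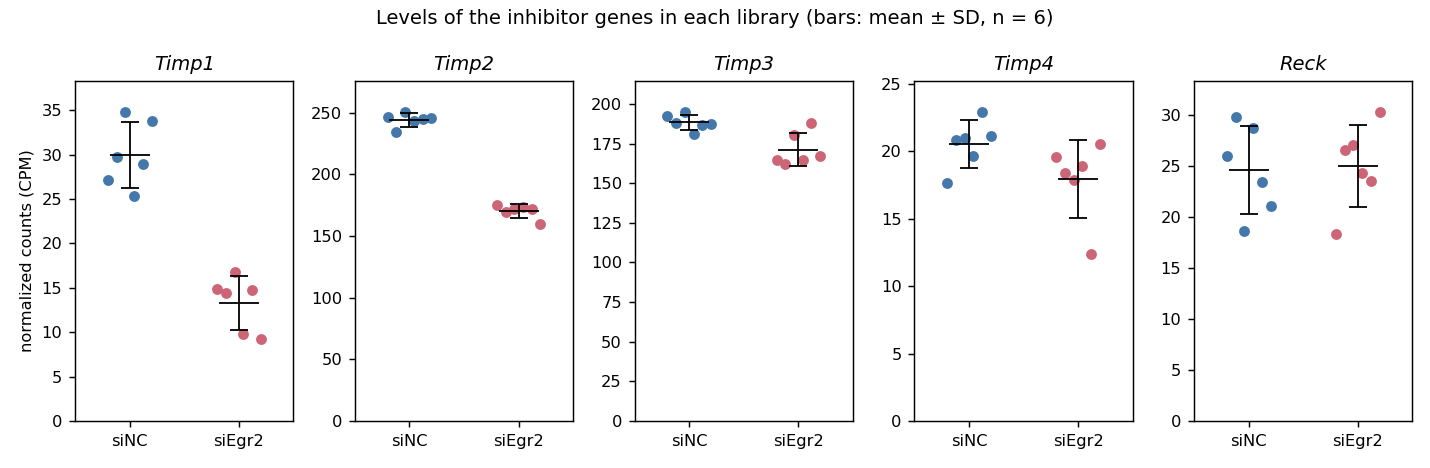
Normalized counts (CPM, linear axis from 0) of the 5 inhibitor genes, with 1 point for each library and bars for the mean ± SD of the 6 libraries of a group. The groups are separate for Timp1 (25.4 to 34.8 against 9.26 to 16.8 CPM) and Timp2 (234 to 251 against 160 to 175 CPM) and overlap for Timp3, Timp4 and Reck.

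Timp1, the inducible inhibitor, showed the largest difference of the 5. Its level in siNC ran from 25.4 CPM through a median of 29.3 to 34.8 CPM, and in siEgr2 from 9.26 through 14.6 to 16.8 CPM. The highest siEgr2 library thus stood well under the lowest siNC library. The means were 30.0 ± 3.69 and 13.3 ± 3.05 CPM (SD over 6 libraries), so that Timp1 fell 2.25-fold. The log2 fold change was -1.17 (standard error 0.14, 95% interval -1.46 to -0.88, edgeR adjusted p = 1.71e-05). Behind these levels lie between 867 and 1411 Timp1 counts in a siNC library and between 95 and 272 in a siEgr2 library.

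The siEgr2 libraries themselves were of unequal level for Timp1. Replicates 4 and 6 stood at 9.79 and 9.26 CPM, and the other 4 between 14.4 and 16.8 CPM. The same 2 libraries had the highest share of Rn18s-rs5 counts, 16.3% and 16.5%, where the other siEgr2 libraries had 10.5% to 13.9%. The part of the ribosomal RNA share in the level of Timp1 was not tested. With both left out, which was decided after these values were known, the log2 fold change of Timp1 was -0.99 (edgeR adjusted p = 2.19e-05).

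Timp2, which inhibits MMP-2 and also serves, together with the membrane protease MMP-14, in the activation of pro-MMP-2, fell by less and with little scatter. It ran from 234 CPM through a median of 245 to 251 CPM in siNC, and from 160 through 172 to 175 CPM in siEgr2. The groups were far apart in relation to their spread, with a coefficient of variation of 2.27% in siNC and 3.27% in siEgr2. The means of 244 ± 5.54 and 170 ± 5.57 CPM (SD over 6 libraries) gave a log2 fold change of -0.52 (standard error 0.034, 95% interval -0.59 to -0.45, edgeR adjusted p = 3.47e-08). The estimate lies just past the fold change threshold and the interval includes that threshold.

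Timp3, the TIMP that binds to the extracellular matrix and inhibits ADAM17 and the aggrecanases, differed far less between the groups. It ran from 181 CPM through a median of 188 to 195 CPM in siNC and from 162 through 166 to 188 CPM in siEgr2. In siEgr2, 4 libraries lay between 162 and 167 CPM and replicate 3 at 180 CPM, all below the siNC libraries, whereas replicate 5 (188 CPM) lay within the siNC range. The log2 fold change was -0.14 (standard error 0.042, 95% interval -0.23 to -0.049, edgeR adjusted p = 0.0285), so Timp3 passed on its p-value but not on its size and was not called. With scaling by library size only, which moved the median of all tested genes to -0.18, it was -0.32. The adjusted p missed 0.05 in 5 of the 12 edgeR fits that each left out 1 library, those without siNC replicate 1 or 3 or siEgr2 replicate 1, 2 or 4 (at most 0.0669), and in the edgeR fit to libraries thinned to the smallest total (0.0794).

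Timp4, a TIMP known for its expression in heart and brain, had the fewest counts of the TIMP genes in every siNC library, whereas in 5 of the 6 siEgr2 libraries Timp1 had fewer. It ran from 17.7 CPM through a median of 20.9 to 22.9 CPM in siNC and from 12.4 through 18.7 to 20.6 CPM in siEgr2, so that the groups overlapped between 17.7 and 20.6 CPM. The log2 fold change was -0.19 (standard error 0.11, 95% interval -0.41 to 0.035, edgeR adjusted p = 0.238). The lowest value, 12.4 CPM, came from siEgr2 replicate 5, the library with the fewest counts, where it rests on 97 counts, and without that library the log2 fold change was -0.11 (edgeR adjusted p = 0.383). With scaling by library size only it was -0.37 and past the adjusted p (0.00797, edgeR), but not called.

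Reck encodes a glycoprotein held at the membrane by a lipid anchor, which inhibits MMP-2, MMP-9, MMP-14 and ADAM10 and also acts, with the receptor ADGRA2, in the recognition of WNT7A and WNT7B. It ran from 18.7 CPM through a median of 24.7 to 29.8 CPM in siNC and from 18.4 through 25.5 to 30.3 CPM in siEgr2. The ranges nearly coincided, and its coefficients of variation, 17.7% and 16.2%, were several times those of Timp2. The log2 fold change was 0.023 (standard error 0.13, 95% interval -0.25 to 0.30, edgeR adjusted p = 0.925). The sign of this small difference was reversed in 7 of 25 alternatives, 1 of them scaling by library size only (-0.16), which moved the median of all tested genes from 0.0046 to -0.18.

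**Figure D2:**
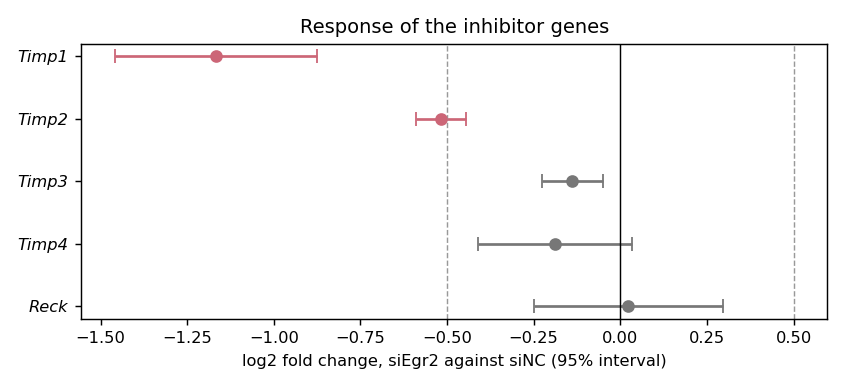
Log2 fold change of siEgr2 against siNC for the 5 inhibitor genes, with 95% intervals from the edgeR fit; red points are called genes and the dashed lines mark the threshold of 0.5 in each direction. Timp1 (-1.17) and Timp2 (-0.52) lie past the threshold, while the intervals of Timp4 and Reck include 0.

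Because ratios of counts within a library do not depend on scaling factors, Timp1 was also set against each of the other 4 genes. For every Timp1 count there were 7.20 to 9.57 counts of Timp2 in the siNC libraries and 10.2 to 17.7 in the siEgr2 libraries. The log2 ratio of Timp1 to Timp2 was lower in siEgr2 by -0.67, with p = 0.00216 in the 2-sided exact permutation test, the smallest p that 6 against 6 libraries can give. The decline of Timp1 was thus steeper than that of Timp2. For every Timp1 count there were 5.54 to 7.13 Timp3 counts in siNC and 10.7 to 18.1 in siEgr2, a difference in log2 ratio of -1.05. The difference was -0.99 against Timp4 and -1.22 against Reck. In all 4 ratios each siEgr2 library lay below each siNC library. The exact permutation p was again 0.00216 for each, with 4 ratios tested and no adjustment. All 4 ratios share the Timp1 counts, and Timp1 alone already separated the groups, so they are not independent of each other.

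As a share of the counts on the 4 Timp genes, Timp1 took 6.20% ± 0.65 in siNC and 3.55% ± 0.74 in siEgr2 (SD, n = 6 libraries each). Timp2 took 50.5% ± 0.80 and 45.7% ± 1.32. Timp3 took the larger share in siEgr2, 45.89% ± 1.75 against 39.01% ± 0.61, although its own level was not higher there. The share of Timp4 was 4.26% ± 0.36 and 4.84% ± 0.88. The groups did not overlap for the shares of Timp1, Timp2 and Timp3. Timp2 was the most counted of the 4 in all siNC libraries, whereas in siEgr2 the shares of Timp3 (44.0% to 48.6%) and Timp2 (44.4% to 47.4%) overlapped.

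**Figure D3:**
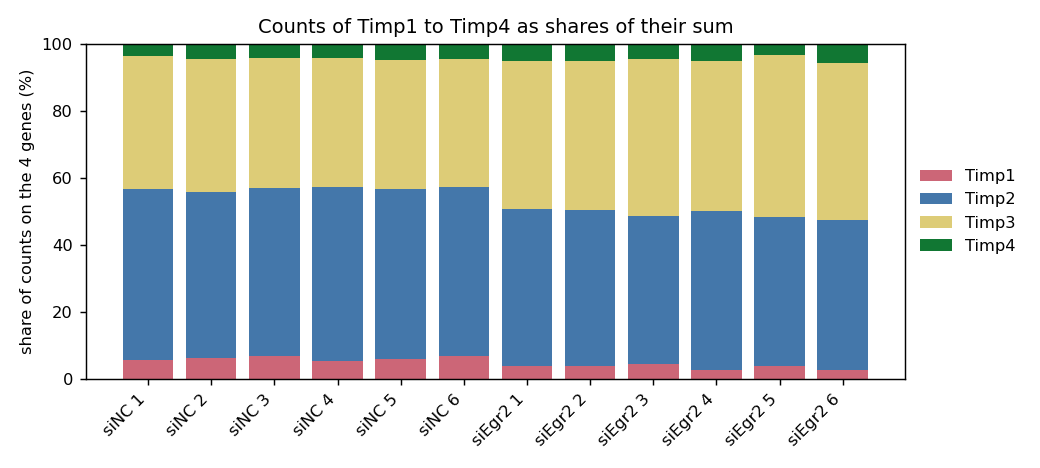
Stacked shares (percent, axis from 0 to 100) of the counts on Timp1, Timp2, Timp3 and Timp4 in each of the 12 libraries. The Timp1 segment is 5.41% to 6.94% high in siNC and 2.59% to 4.34% in siEgr2, and the Timp3 segment is 38.4% to 39.8% in siNC and 44.0% to 48.6% in siEgr2.

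Levels of different genes can be compared only per length, for which CPM was divided by the exonic length in kilobases (GENCODE M21). In siNC the order of the levels was Timp2 (62.6 ± 1.42 CPM per kb), Timp1 (33.7 ± 4.16), Timp3 (23.1 ± 0.60), Reck (5.15 ± 0.91) and Timp4 (3.49 ± 0.30), all SD with n = 6 libraries. The ranges of neighbours in this order did not overlap, but Reck (from 3.90) and Timp4 (up to 3.89) nearly met. In siEgr2, Timp1 (15.0 ± 3.44 CPM per kb) stood below Timp3 (21.0 ± 1.28), while Timp2 (43.7 ± 1.43) stayed first and Reck and Timp4 last. The place of Timp3 depends on the length used: per kb of the transcript with the longest coding sequence, which is 4722 bases against 8144 exonic bases, Timp3 was at 39.9 ± 1.03 CPM per kb in siNC, and its range of 38.3 to 41.3 met that of Timp1, 28.7 to 39.4. A difference in the number of cells that express a gene and a difference in its RNA per cell cannot be told apart in these bulk libraries.

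The proteases on which these inhibitors act were examined as lists of 51 MMP, ADAM and ADAMTS genes. Of these, 37 passed the filter on low counts, and 12 (32.4%) were called, 10 lower and 2 higher, beside 7.72% of all tested genes. Of the 10 lower, Mmp10 passed the filter only through its siNC counts, and Adamts19 had at most 4 counts in a siEgr2 library. Among genes with at least 10 counts in every library, 10 of 34 protease genes were called, beside 7.75% of all genes. In libraries thinned to the smallest total, 9 of 35 were called, beside 7.33% of all genes. The median log2 fold change of the 37 was -0.16.

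Among the MMPs, 14 of 23 were tested, 6 were called lower and 1 higher, beside 5.08% of all tested genes called lower and 7.72% called in either direction. Mmp3, stromelysin-1, which cleaves many matrix proteins and activates other MMPs, was at 125 ± 31.9 CPM in siNC and 35.1 ± 3.53 CPM in siEgr2 and fell by 1.84 on the log2 scale (edgeR adjusted p = 5.35e-06). It had 97.5 to 181 CPM in siNC and 30.2 to 39.7 CPM in siEgr2, with the groups far apart. Mmp14, the membrane-type protease that TIMP-2 binds in the activation of pro-MMP-2, fell from 40.5 ± 7.37 to 24.2 ± 4.71 CPM (log2 fold change -0.75), and Mmp19 from 23.1 ± 2.56 to 12.3 ± 1.67 CPM (-0.90). The remaining called MMPs that were lower were Mmp11 (-1.35), the collagenase Mmp13 (-1.64) and Mmp10, with between 16 and 28 counts in a siNC library and at most 2 in a siEgr2 library.

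Membrane-bound MMPs other than Mmp14 gave mixed values. Mmp16 was the called MMP that rose, from 57.8 ± 2.94 to 81.9 ± 5.74 CPM (log2 fold change 0.50, edgeR adjusted p = 6.88e-06). Mmp15 (0.45) and Mmp24 (0.47) had every siEgr2 library above every siNC library and met the p-value criterion, but both stayed inside the fold change threshold. Mmp17 (0.16) and Mmp23 (-0.48) passed neither criterion, with overlapping groups, and Mmp25 had too few counts to be tested. Of the gelatinases, which TIMP-2, TIMP-1 and RECK hold in check, Mmp2 was at 74.1 ± 8.89 CPM in siNC and 57.1 ± 7.23 CPM in siEgr2, with a log2 fold change of -0.38 that was not called. Mmp9 had between 8 and 23 counts in siNC libraries and between 0 and 11 in siEgr2 libraries, too few to be tested.

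The targets of TIMP-3 and RECK among the ADAM proteases differed little. Of 9 ADAM genes 7 were tested and 1 was called, beside 7.72% of all tested genes. This was Adam8, which rose from 3.88 ± 0.48 to 5.77 ± 1.003 CPM (log2 fold change 0.57, edgeR adjusted p = 0.0107). Adam10, the sheddase that RECK inhibits, had a log2 fold change of 0.017 (95% interval -0.32 to 0.35), and Adam17, the TNF-converting enzyme that TIMP-3 inhibits, of 0.027 (-0.36 to 0.42). Of 19 ADAMTS genes 16 were tested and 4 were called, all lower, beside 5.08% of all tested genes called lower. Adamts5, an aggrecanase, fell from 33.2 ± 1.92 to 21.8 ± 3.88 CPM (-0.60), whereas Adamts4, the other main aggrecanase, ran from 98.7 to 112 CPM and from 87.4 to 110 CPM (-0.19) and was not called. Adamts14 (-0.94) and Adamts12 (-0.86) were called with overlapping groups, and Adamts19 had 13 to 46 counts in siNC libraries and 0 to 4 in siEgr2 libraries.

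**Figure D4:**
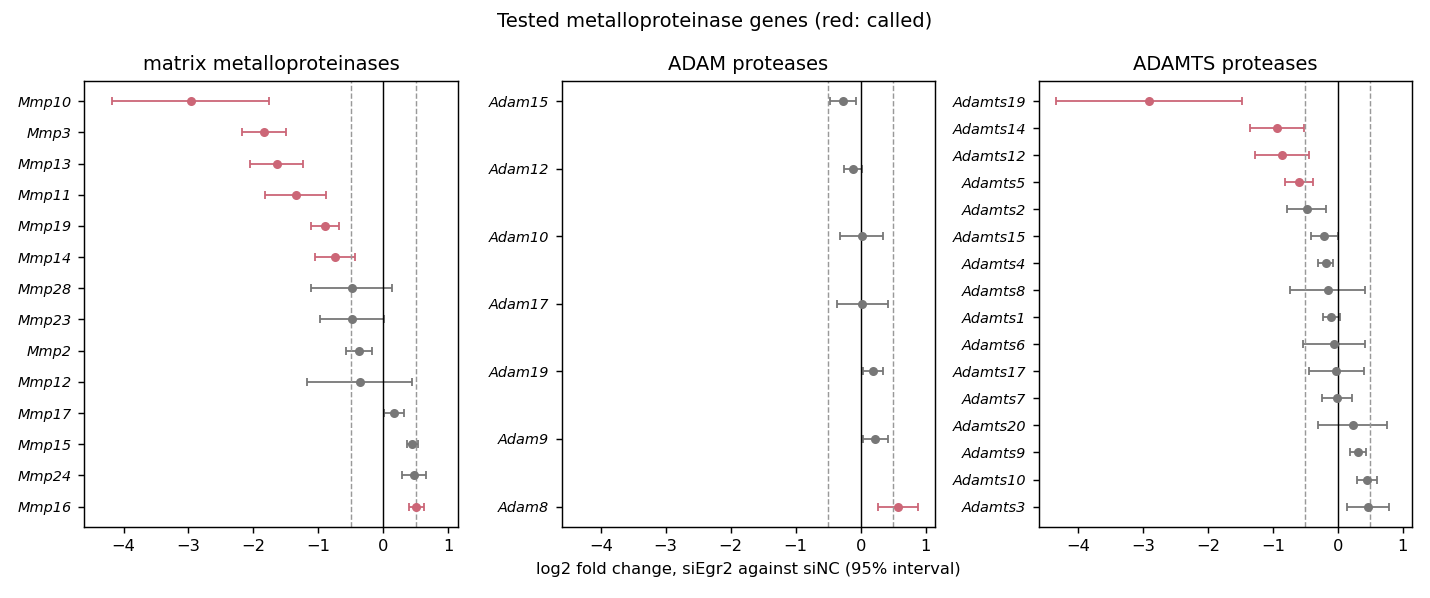
Log2 fold change of siEgr2 against siNC with 95% intervals for the 37 tested protease genes, in 3 panels by family; red points are called genes and dashed lines mark the threshold of 0.5. Called genes on the left include Mmp3 (-1.84), Mmp13 (-1.64) and Adamts5 (-0.60), and those on the right are Mmp16 (0.50) and Adam8 (0.57), while the wide intervals of Mmp10 and Adamts19 rest on at most 2 and 4 counts in a siEgr2 library.

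A2m, alpha-2-macroglobulin, a secreted trap for proteases of all classes, had the most counts of the inhibitor genes examined and fell as well. It ran from 1867 CPM through a median of 1936 to 2178 CPM in siNC and from 1012 through 1128 to 1175 CPM in siEgr2. The log2 fold change was -0.82 (standard error 0.042, edgeR adjusted p = 1.96e-09). Its relatives Pzp and Mug1 had too few counts to be tested. Of 12 other proteins with the netrin-like domain that TIMPs carry, 11 were tested, 4 were called lower and 1 higher, beside 7.72% of all tested genes called, and their median log2 fold change was -0.32. Ntn1, the axon guidance cue netrin-1, had a log2 fold change of -0.52, Ntn4 of -0.56, Ntn3 of -0.54 and Sfrp5 of -1.27, and Wfikkn1, which passed the filter on low counts only through its siEgr2 level (6 to 26 counts in a library), had 1.31.

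Of 6 genes for the binding and uptake of TIMPs, 1 was called and 4 passed edgeR's adjusted p, beside 7.72% and 19.9% of all tested genes, and their median log2 fold change was -0.20. Itga3, the integrin subunit through which TIMP-2 binds cells, fell from 23.1 ± 3.72 to 13.8 ± 1.90 CPM (log2 fold change -0.75). Lrp1, the endocytic receptor that clears TIMPs and MMP complexes, was at 975 ± 59.0 and 802 ± 66.5 CPM (-0.28), and Efemp1, a matrix protein that binds TIMP-3, at 10.04 ± 1.70 and 9.08 ± 2.14 CPM (-0.14). Neither was called. Of 9 genes of the Reck and Wnt7 pathway, 8 were tested and 0 were called by edgeR, DESeq2 or limma-voom, although 4 passed edgeR's adjusted p and 6 its unadjusted p, and the median log2 fold change of the 8 was -0.25. The 4 were the ligand genes Wnt7a (-0.28) and Wnt7b (-0.46) and the receptor genes Fzd4 (-0.46) and Lrp5 (-0.36), all with lower means in siEgr2. Adgra2, the partner of RECK, had a log2 fold change of -0.10 with a 95% interval of -0.45 to 0.25.

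Of 23 genes linked to the induction of Timp1 (cytokines of the IL-6 family, their receptors, Stat3 and its target Socs3, Tgfb1, and AP-1, Ets and Runx factors), 20 were tested, 6 were called and all 6 were lower, beside 5.08% of all tested genes called lower. Their median log2 fold change was -0.43, against 0.0046 over all tested genes. Osmr, the receptor subunit for oncostatin M, fell from 71.2 ± 2.76 to 48.7 ± 3.73 CPM (log2 fold change -0.55, edgeR adjusted p = 3.53e-06). Lif fell from 7.003 ± 1.82 to 2.80 ± 1.03 CPM (-1.32), Il6ra from 9.44 ± 0.77 to 4.61 ± 0.54 CPM (-1.04) and Cntf from 10.6 ± 2.25 to 6.66 ± 1.30 CPM (-0.68). The other called genes were Runx1 and Tgfb1. Cntfr, the receptor for the CNTF in the medium, was at 33.4 ± 2.72 and 34.5 ± 2.68 CPM, with a log2 fold change of 0.042 (95% interval -0.11 to 0.19). By edgeR's adjusted p alone 11 of the 20 passed, beside 19.9% of all tested genes. The 5 of them that were not called were Stat3 (-0.13), Socs3, a feedback inhibitor of STAT3 signaling (-0.13), the AP-1 genes Junb (-0.38) and Fosl2 (-0.47) and the Ets factor gene Ets1 (0.25). Levels of Ets1 in siEgr2 (at least 45.7 CPM) did not overlap those in siNC (at most 44.8 CPM).

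The synapsin genes that surround Timp genes were measured beside them. Syn1, around Timp1, was at 34.3 ± 1.53 CPM in siNC and 37.6 ± 2.72 CPM in siEgr2 (log2 fold change 0.13), against the fall of Timp1 by 1.17 on the log2 scale. Syn2, around Timp4, had a log2 fold change of 0.021 with a 95% interval of -0.23 to 0.27. Syn3, which shares exonic bases with Timp3, had between 306 and 422 counts in siNC libraries and between 40 and 159 in siEgr2 libraries, beside 5709 to 7816 and 1468 to 2919 counts of Timp3. Syn3 reached 8.96 to 12.3 CPM in siNC, whereas in siEgr2 replicates 1, 2 and 6 stood at 2.89 to 5.17 CPM and replicates 3, 4 and 5 at 9.73 to 11.1 CPM. It was not called (log2 fold change -0.58, edgeR adjusted p = 0.203), and of the 3 synapsin genes 0 were called by edgeR, DESeq2 or limma-voom, 0 passed edgeR's adjusted p and 1, Syn1, its unadjusted p.

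Markers of cell types and structural RNAs were counted in the same libraries, where 7.72% of all tested genes were called and 5.08% were called lower. Of 10 astrocyte markers all were tested and 5 were called, all lower, namely Gfap, Aqp4, Aldh1l1, Slc1a3 and Slc1a2. The summed level of the 10 was 8295 to 8995 CPM in siNC and 5321 to 6011 CPM in siEgr2. For Gfap, the study's qPCR of primary OLs with Egr2 interference reported the other direction, an increase. Of 10 fibroblast and pericyte markers 8 were tested and 3 were called lower, with a summed level of 905 to 1461 CPM and 909 to 1093 CPM. Microglia markers summed to 4.36 to 7.18 CPM in siNC and 2.42 to 7.78 CPM in siEgr2, with 4 of 10 tested, 0 called by edgeR, DESeq2 or limma-voom and 0 past an unadjusted p of 0.05, and Aif1 and Itgam had no count in any library. Endothelial markers summed to 18.4 to 22.6 CPM and 18.4 to 22.9 CPM, with 4 of 9 tested, Flt1 called lower and no count of Cldn5. Flt1 passed the filter on low counts through its siNC libraries (45 to 97 counts) and had 3 to 22 counts in siEgr2 libraries. Of 10 neuron markers 9 were tested and 1, Stmn2, was called lower, with a summed level of 410 to 664 CPM and 398 to 637 CPM. Of 10 markers of myelinating OLs 0 were called by edgeR, DESeq2 or limma-voom. Among these 10, 3 passed edgeR's adjusted p, beside 19.9% of all tested genes, and 6 its unadjusted p. Their summed level was 7283 to 8308 CPM in siNC and 6841 to 7122 CPM in siEgr2. Of 7 precursor markers Pdgfra and Cspg4 were called higher, and 6, all with higher means in siEgr2, passed edgeR's adjusted p. The summed level of the 7 was 4918 to 5141 CPM in siNC and 5920 to 6057 CPM in siEgr2. All 8 structural RNA genes examined were called higher. The part of these markers and RNAs in the levels of Timp1 and Timp2 was not tested.

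The genes with the pattern most like that of each inhibitor were found among 12399 other tested genes whose log2 CPM averaged 2 or more. Likeness was the root mean square difference over the 12 libraries between log2 values, each taken relative to the gene's own siNC mean. Closest to Timp1 were Slc7a11, the cystine transporter (0.164), the cytokine gene Lif (0.197) and Rnd1 (0.201), and 2 genes lay within 0.2 of it. Closest to Timp2 were Ntrk2, the BDNF receptor (0.0459), Scd1, a fatty acid desaturase (0.0460), and Pygb, a glycogen phosphorylase (0.0637), and 693 genes lay within 0.2. Sptlc1, Gna13 and Fam168a were closest to Timp3 (0.0413 to 0.0468), with 5209 genes within 0.2, Prr13, Adcy3 and Ankrd27 to Timp4 (0.0873 to 0.0963), with 972, and Cmpk2, Slc22a17 and Slirp to Reck (0.133 to 0.140), with 189. The number of genes within 0.2 depends on the size of a gene's difference and on its scatter, so it does not measure how particular a pattern is. The libraries share group, depth and ribosomal RNA share, so these distances describe the 12 values only.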

How the data were processed

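RNA was extracted with TRIzol, and libraries were sequenced on the Illumina platform with 50 bp reads. The authors deposited 1 table of counts, neither scaled nor filtered, by gene symbol for the 12 libraries, and the submitters' processing notes name mm10. The aligner, counting program and strand setting are not given in the sources used here. One blank entry without counts (1 row) was left out. Tests used edgeR 4.0.16 under R 4.3.3 (filterByExpr, TMM, robust quasi-likelihood test, Benjamini-Hochberg adjustment over 16600 genes) and limma 3.58.1. The procedure was checked on simulated counts. Alternatives were other scalings, DESeq2 1.42.0, limma-voom, other filters and thresholds, thinning, a replicate block and each library left out. Ratios used log2 of counts plus 0.5. The lower depth in siEgr2, at least 8034251 counts, limits precision for genes with few counts.

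The members and lists were chosen with earlier results of these data known. Named genes were the 5 inhibitors, Egr2, a fixed set of partners, up to 4 called genes of each list with the highest CPM, the 3 nearest in pattern, and genes named to complete a count, chosen after their values were seen. Annotation came from GENCODE M21 (GRCm38) and promoter sequences from RefSeq (GRCm38.p6), which matched all 5 genes.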

Additional observations from a re-analysis of the deposited data

Results flagged for a closer look

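Among 22 sets of 6 values examined for a single library far from the rest, 3 were found, where chance gives about 1.1. Timp2 was at 160 CPM in siEgr2 replicate 6, against 170 to 175 CPM in the other 5 siEgr2 libraries, and without that library its log2 fold change was -0.50, the value nearest the threshold among the 12 fits without 1 library. Timp4 was at 12.4 CPM in siEgr2 replicate 5, the smallest library, against 17.9 to 20.6 CPM in the others, and without it the log2 fold change of Timp4 was -0.11. The total of siNC replicate 6 was 39383014 counts, against 28682946 to 32460116 in the other siNC libraries. No cause was tested for any of the 3.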

How the results depend on the processing

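Timp1 and Timp2 stayed lower and past the adjusted p in all 25 alternatives, with log2 fold changes of -1.34 to -0.99 and -0.70 to -0.50. Timp2 lost its call only with a threshold of 1 on the log2 scale, by construction (-0.52). Over the 12 fits without 1 library Timp2 ran from -0.53 to -0.50, at the edge of the threshold. Timp3 gained a call only where no fold change was required (-0.14, adjusted p = 0.0285, edgeR). With siEgr2 replicates 4 and 6 left out its edgeR adjusted p was 0.0766, and scaling by library size gave -0.32 (0.000181). Timp4 was never called; the same scaling gave -0.37 (edgeR adjusted p = 0.00797) and leaving out siEgr2 replicate 5 gave -0.11, and the adjusted p was at least 0.05 in all other alternatives. That scaling moved the median of all genes from 0.0046 to -0.18. Reck changed sign with it (-0.16), without a filter on low counts (-0.021), with siEgr2 replicates 4 and 6 left out, chosen after the data were seen (-0.054), and without siNC replicate 3 or 6 or siEgr2 replicate 3 or 6, the fits without 1 library running from -0.044 to 0.097; its adjusted p was at least 0.362 throughout.

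Called genes numbered 1281, and 1974 with library size only, 3300 with no fold change threshold and 373 with a threshold of 1; protease genes called numbered 12, and 20 and 5 with these 2 thresholds. The share of called genes that were lower was 65.9% and 88.0% with library size only.

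Same-numbered libraries did not deviate together (correlations of -0.0388 to 0.0422 over 6 pairs). Such correlations cannot show a weak pairing, and the labels state none. With the replicate block 1124 genes were called, and Timp1 was at -1.19 and Timp2 at -0.52. The 4 ratios kept their direction and an exact p under 0.05 in all 15 alternatives. Where counts are few, as for Mmp9 and Mmp10, depth limits what can be seen. The cause of these changes was not tested.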
